A study of Mus musculus with 8 samples.

Results

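The genes described here are 35 genes of glycolysis and of the transcriptional response to hypoxia, followed in 4 mouse epithelial cell lines at rest and after stimulation with TGF-β1 plus EGF. They were chosen by name, and each was represented by the probe set with the highest mean level among those that the array's annotation assigns to that gene alone. Of the 35 genes, 32 had such a probe set, out of 18193 genes on the array, and 30 passed the filter on dim genes. Gpi1, Eno1 and Bnip3l had none under this rule. The Bnip3l probe sets also list a pseudogene. Slc2a3 was below the filter, and Gapdh is represented only by 3 control probe sets of the array, so neither was among the 12697 genes tested. Ero1l appears under its current symbol, Ero1a. The lines were EpH4 and NMuMG, from mammary gland, and mProx and MCT, from renal tubule, mProx being labelled as proximal. EpH4 carries the label of EMT resistance, EMT being the epithelial-mesenchymal transition in which epithelial cells take on fibroblast-like traits. Each line gave 1 resting array and 1 array of cells given recombinant human TGF-β1 and EGF, each at 3 ng/mL, for 24 h. Before that, every culture was kept for 24 h in K-1 medium, which holds transferrin and insulin, and the same medium was used during the stimulation. The labels name no hypoxic treatment. Nothing in the labels says how many cultures lie behind an array, so the spread given below is the spread between lines.

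Glycolysis converts glucose to pyruvate in the cytosol. Glucose enters through facilitative transporters, is trapped by hexokinase, and pyruvate is either oxidised in mitochondria or reduced to lactate and exported. Hypoxia-inducible factors (HIFs) activate many genes of this route together with genes of mitophagy, pH control and vascular signalling. In the presence of oxygen, prolyl hydroxylases mark the HIF alpha subunits for destruction, so HIF activity is set largely by protein stability and not only by the mRNA of the factors themselves. Proximal tubule cells in the body make rather than consume glucose, whereas cultured tubular lines often rely on glycolysis.

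Values are log2 levels of the deposited array signals after quantile normalization. A gene is called dim where its level lies under the filter level of 5.27, and the highest level on the scale is 13.71. Median deposited signals ran from 41.5 to 59.6 over the 8 arrays. Epithelial markers above the filter level numbered 11 of 12 in EpH4, 10 in NMuMG, 8 in MCT and 7 in mProx, on both arrays of each line. Cdh1, encoding E-cadherin, was dim in mProx and MCT on both arrays. The water channel gene Aqp1 was at 12.84 in resting mProx and at 5.07 in resting MCT. The proximal tubule transporter gene Slc34a1 lay between 5.26 and 6.01 on all arrays. Pax8, from the same proximal tubule list, was at 10.9 and 9.66 in resting mProx and MCT, against 5.78 and 5.25 in resting EpH4 and NMuMG. Of the 10 measured markers of that list, 7 were above the filter level on each resting array. The mammary keratin gene Krt14 was at 10.85 in resting EpH4 and 4.05 in resting NMuMG. Foxa1, from the same mammary list, went the other way, at 5.99 in resting EpH4 and 10.12 in resting NMuMG. Of the 9 mammary markers, 6 and 5 were above the filter level on these arrays. Of 6 endothelial markers 0 to 3 were above the filter level on an array, and of 5 measured leukocyte markers 2 to 4. Targets of the stimulation were higher in every line. The ERK-responsive ETS factor gene Etv5 was higher by 1.30 in EpH4, 1.27 in MCT, 2.92 in mProx and 1.49 in NMuMG. The TGF-β target gene Pmepa1 was higher by 0.892, 3.068, 1.225 and 1.138 in the same order. Another TGF-β target gene, Smad7, was higher by 0.95, 0.60 and 0.79 in EpH4, MCT and NMuMG but by only 0.01 in mProx.

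The promoters of 6 genes are shown because these are the genes that changed at least 2-fold in some line with both arrays of that line above the filter level. Slc2a1, Hk2, Ankrd37 and Ero1a were higher, and Eno2 and Aldoc lower. Each run is the 250 bases before the first start site listed by RefSeq on GRCm38.p6, written 5′ to 3′ on the gene's strand. Capitals mark ACGTG or GCGTG on either strand, the core letters of the hypoxia response element. Overlapping matches are merged.
Slc2a1, chr4:119108495-119108744, plus strand: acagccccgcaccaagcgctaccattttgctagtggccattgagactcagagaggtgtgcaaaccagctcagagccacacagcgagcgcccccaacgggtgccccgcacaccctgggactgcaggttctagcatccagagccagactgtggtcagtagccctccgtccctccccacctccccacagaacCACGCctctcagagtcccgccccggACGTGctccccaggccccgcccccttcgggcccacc
Hk2, chr6:82774455-82774704, minus strand: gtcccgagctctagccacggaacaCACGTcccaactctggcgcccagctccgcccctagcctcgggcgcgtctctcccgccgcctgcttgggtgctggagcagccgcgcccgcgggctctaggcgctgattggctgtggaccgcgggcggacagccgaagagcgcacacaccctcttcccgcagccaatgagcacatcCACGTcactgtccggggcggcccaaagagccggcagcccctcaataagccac
Ankrd37, chr8:45999851-46000100, minus strand: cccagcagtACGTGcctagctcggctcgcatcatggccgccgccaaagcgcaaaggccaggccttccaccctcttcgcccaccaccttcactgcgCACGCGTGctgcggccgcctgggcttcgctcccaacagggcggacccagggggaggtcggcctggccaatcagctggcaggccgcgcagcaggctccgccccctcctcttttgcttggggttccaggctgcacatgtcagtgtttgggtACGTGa
Ero1a, chr14:45318573-45318822, minus strand: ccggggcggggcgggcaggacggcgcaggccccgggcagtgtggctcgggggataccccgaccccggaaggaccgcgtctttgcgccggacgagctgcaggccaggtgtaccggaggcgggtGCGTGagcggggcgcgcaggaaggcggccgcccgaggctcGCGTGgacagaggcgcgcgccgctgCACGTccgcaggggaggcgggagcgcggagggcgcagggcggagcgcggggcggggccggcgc
Eno2, chr6:124769674-124769923, minus strand: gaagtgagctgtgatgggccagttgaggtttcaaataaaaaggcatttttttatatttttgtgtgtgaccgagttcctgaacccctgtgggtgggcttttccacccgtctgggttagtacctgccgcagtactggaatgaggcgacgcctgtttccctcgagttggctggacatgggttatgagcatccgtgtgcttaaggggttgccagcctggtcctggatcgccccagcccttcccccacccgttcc
Aldoc, chr11:78322823-78323072, plus strand: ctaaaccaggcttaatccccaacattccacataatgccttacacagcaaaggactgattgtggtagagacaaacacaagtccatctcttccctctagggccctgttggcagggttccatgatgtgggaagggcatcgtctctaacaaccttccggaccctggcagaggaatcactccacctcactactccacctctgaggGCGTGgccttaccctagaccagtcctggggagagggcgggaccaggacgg

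The Slc2a1 run holds 2 matches, Hk2 2, Ankrd37 4, Ero1a 3, Aldoc 1 and Eno2 0. Whether the number of matches goes with the direction of change was not tested over the set. Pfkm, with a mean change of -0.27, held ACGTG 2 times in its window. In windows of the same length, 25 of the 31 genes of the set with a RefSeq entry held at least 1 match (80.6%), against 38.6% of the 27025 genes in the table. All 5 of the other hypoxia targets with an entry held a match, and 11 of 17 glycolytic enzyme genes did. Searched apart, ACGTG was in 51.6% of the set's windows and 16.6% of all, and GCGTG in 51.6% and 28.2%. The longer letters CACGTG, the E-box bound by Myc-type factors, contain ACGTG and were in 16.1% of the set's windows and 6.05% of all. The windows of the set were not matched to the others in base composition, and a match is a run of letters, not a measured binding site.

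At rest, glycolytic enzyme genes stood highest in MCT and lowest in EpH4. MCT had the highest resting level of the 4 lines for 19 of the 30 genes tested (63.3%), against 24% of all genes tested, and for 10 of the 14 glycolytic enzymes. EpH4 had the lowest resting level for 10 of the 14 enzymes (71.4%), against 24.4% of all genes tested. The MCT count was 20 of 30 on the deposited scale and 21 with arrays centred on their medians, whereas the EpH4 enzyme count dropped to 6 and 8 under those scalings. The median resting level of the enzymes, relative to each gene's mean over the lines, was -0.59 in EpH4 and 0.48 in MCT, and within 0.02 of that mean in both other lines.

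**Figure D1:**
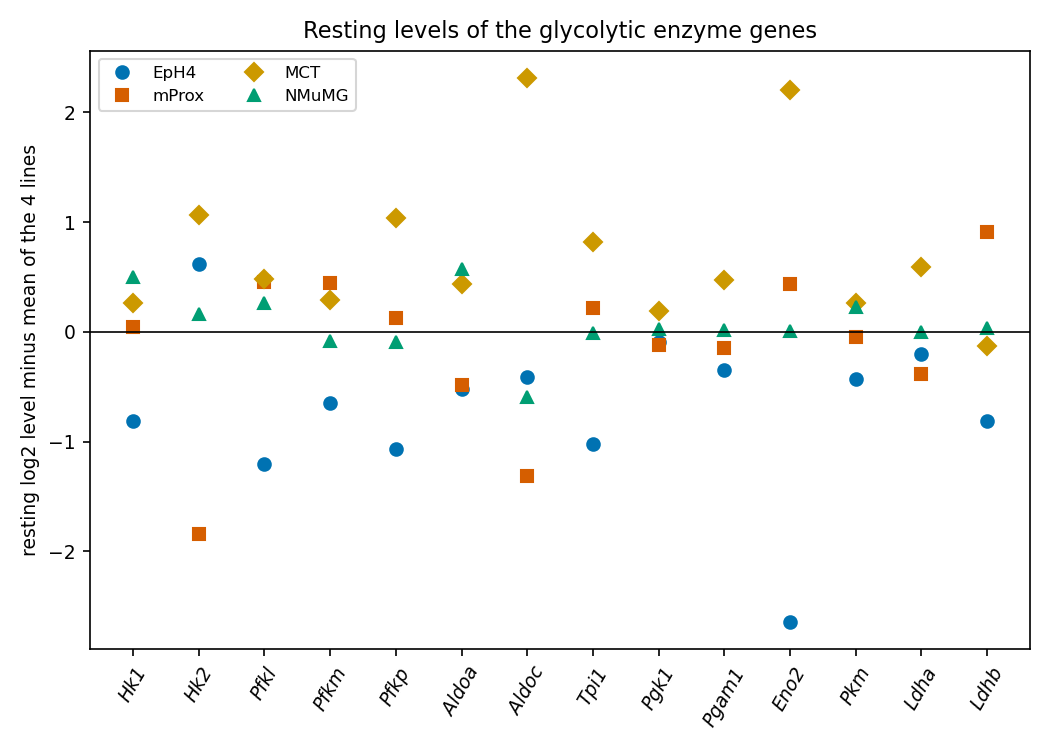
Resting log2 level of each of the 14 tested glycolytic enzyme genes, minus the mean of the 4 lines for that gene (vertical axis, log2 units). Each symbol is 1 array, and EpH4 lies lowest for 10 of the 14 genes and MCT highest for 10.

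Several resting differences were large for single genes, but none passed a test. Pfkl, the liver-type phosphofructokinase that commits sugar to glycolysis, was at 9.70 in resting EpH4 against 11.36, 11.39 and 11.17 in mProx, MCT and NMuMG. EpH4 thus lay apart from the other lines, less clearly on the deposited scale and with median centring than under quantile normalization. The difference was -1.60 with an SE of 0.28 (limma adjusted p = 0.259). Resting Eno2, the neuron-type enolase, was dim in EpH4 at 4.57 and stood at 7.65, 9.41 and 7.22 in the other lines, a difference of -3.53 (limma adjusted p = 0.463). Car9, a cell-surface carbonic anhydrase and classical HIF target, ran the other way, at 7.65 in EpH4 against 4.86, 5.83 and 5.75 (limma adjusted p = 0.46). Pdk1, the kinase that switches off pyruvate dehydrogenase, separated the tissues at 9.29 and 9.73 in the kidney lines and 7.51 and 7.39 in the mammary lines (limma adjusted p = 0.402). Slc16a3, the low-affinity lactate exporter MCT4, was at 10.57 in MCT cells but between 4.88 and 6.17 in the other lines. In the test of EpH4 against the other lines 1 gene of 12697 passed (0.00788%), which is not in the set, and 5 of the 30 set genes had an unadjusted p under 0.05, against 8.83% of all. In the test of kidney against mammary lines 0 genes passed (0%). Here 937 genes had an unadjusted p under 0.05 (7.38%), of the set only Pdk1.

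After stimulation, Slc2a1 and Hk2, the genes of glucose entry and trapping, were higher in each of the 4 lines, by 0.73 ± 0.54 and 0.84 ± 0.69 (SD, n = 4). Most enzymes further down the pathway had 4-line means within 0.3 of 0, and the isoforms Eno2 and Aldoc were lower on average. In all, 4 of the 30 genes were higher in each of the 4 lines, against 10.4% of all genes tested, a share near the background. These were Slc2a1, Hk2, Egln1 and Pfkfb4. Pfkm and Eno2 were lower in each, against 9.18% of all genes tested, but in EpH4 the changes were only -0.004 and -0.013. These counts depend on the scaling. In NMuMG Pfkm changed by 0.30 on the deposited scale and 0.13 with median centring. With median centring Eno2, dim in EpH4, changed there by 0.03. In limma's test over the 4 lines 0 of 12697 genes passed (0%), against 1454 at an unadjusted p under 0.05 (11.5%). Of the 30 set genes 4 were below that unadjusted limit (13.3%), a share near the background, with Slc2a1, Hk2 and Egln1 higher and Eno2 lower. In the 3 lines not labelled as resistant 13 genes passed (0.102%), none of the set, and the count is 26 of 12640, again none of the set, with another choice of probe sets and 1 fit of all 8 arrays. In the fit of these 3 lines 6 of 30 set genes had an unadjusted p under 0.05 (20%) against 12.6% of all.

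Slc2a1 encodes GLUT1, the basal glucose transporter of most epithelia. Its level was 9.21 and 9.74 in resting and stimulated EpH4, 8.95 and 10.18 in mProx, 10.75 and 11.86 in MCT, and 10.03 and 10.08 in NMuMG. All 4 stimulated arrays were above the resting array of the same line, but the NMuMG gap was very small, and resting MCT was above stimulated EpH4, mProx and NMuMG. The fold change was 1.45 in EpH4, 2.16 in MCT, 2.34 in mProx and 1.04 in NMuMG. Over the 4 lines the mean change of 0.73 had an SE of 0.19 (limma adjusted p = 0.239). Over the 3 lines without EpH4 it was 0.80 with an SE of 0.23 (limma adjusted p = 0.251). With NMuMG left out as well, in the kidney lines alone, it was 1.17 with an SE of 0.15. It passed in that fit (limma adjusted p = 0.0273), as did 63 of the 12697 genes. The fit rests on 2 pairs of arrays and leaves out the 2 lines with the smallest Slc2a1 changes, so its call depends on which lines were kept. There Hk2 was at 1.35 with an SE of 0.23 and did not pass (limma adjusted p = 0.065). The other 2 probe sets of Slc2a1 gave mean changes of 0.73 and 0.55, the second with -0.04 in NMuMG. Slc2a3, encoding the high-affinity transporter GLUT3, was dim on all 8 arrays, at 3.76 to 5.18.

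Hk2 encodes the inducible hexokinase that binds mitochondria. Its level was 9.91 and 10.09 in resting and stimulated EpH4, 7.46 and 9.21 in mProx, 10.36 and 11.30 in MCT, and 9.46 and 9.94 in NMuMG. Each stimulated array lay above its resting partner, and resting mProx was the lowest of all. The fold change was 3.38 in mProx, 1.92 in MCT, 1.40 in NMuMG and 1.13 in EpH4. Over the 4 lines the mean change of 0.84 had an SE of 0.23 (limma adjusted p = 0.265), and over the 3 lines without EpH4 it was 1.06 with an SE of 0.23 (limma adjusted p = 0.154). The 3-line call depended on the scaling. It passed with median-centred arrays (limma adjusted p = 0.0499) and on the deposited scale (limma adjusted p = 0.0112), where its change in EpH4 was -0.11. Hk1, the constitutive hexokinase, changed by 0.55 in mProx and by 0.10, 0.11 and -0.10 in EpH4, MCT and NMuMG.

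**Figure D2:**
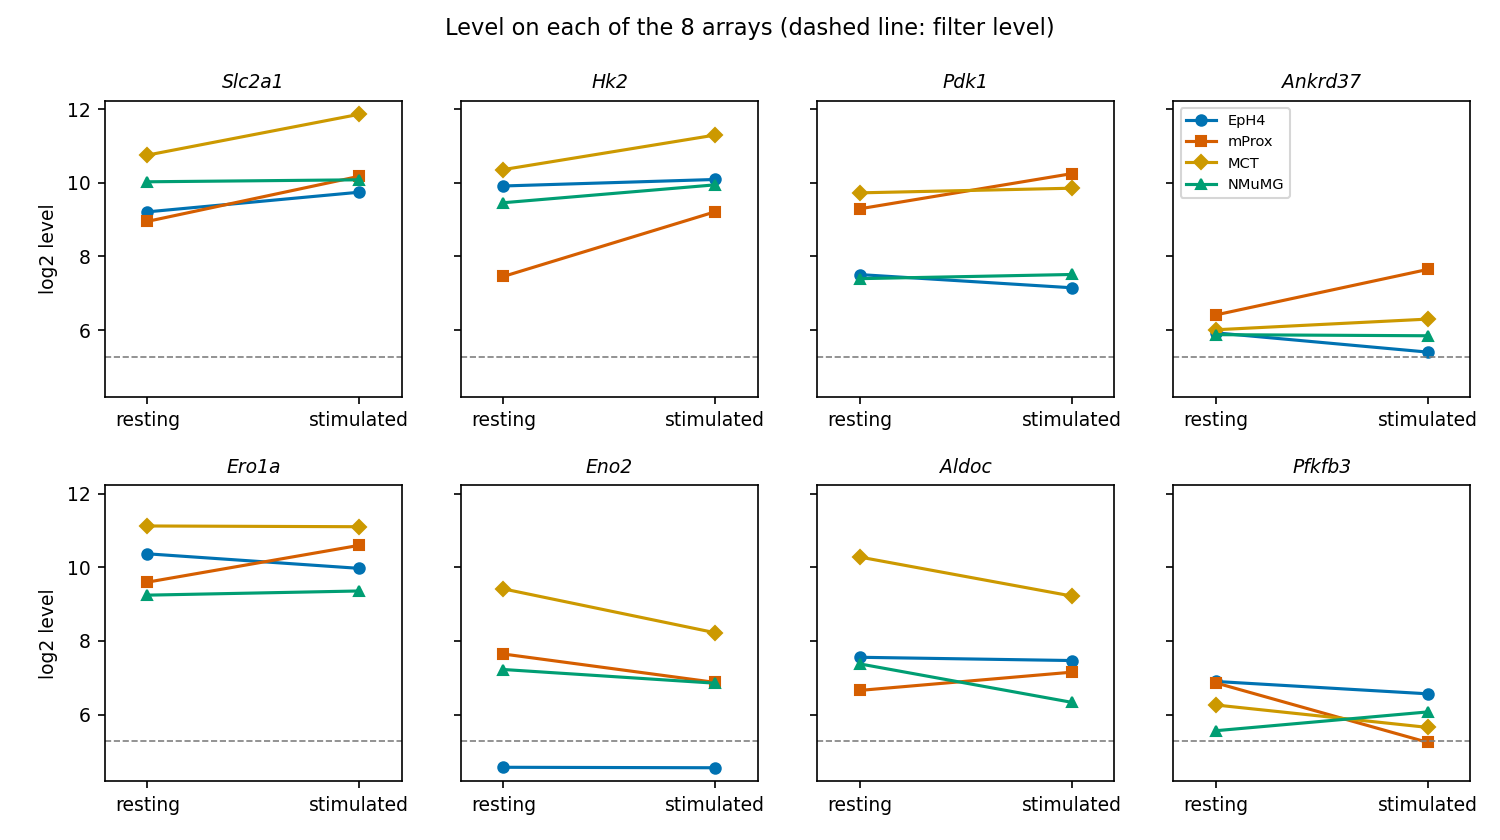
Log2 level (vertical axis) of 8 genes on the resting and the stimulated array of each line, joined by a line for each cell line. The dashed line is the filter level of 5.27, and in mProx Slc2a1, Hk2, Pdk1, Ankrd37 and Ero1a move up while Eno2 and Pfkfb3 move down.

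The phosphofructokinase genes did not move together. In mProx Pfkl and Pfkp, the platelet-type subunit, were higher by 0.50 each and Pfkm, the muscle-type subunit, lower by 0.11. In MCT the changes were -0.24, -0.42 and -0.87 in the order Pfkl, Pfkp and Pfkm. In NMuMG they were 0.30, -0.39 and -0.08, and in EpH4 -0.28, -0.13 and 0.00. Pfkm in MCT, from 10.29 to 9.42, thus stood apart from the other lines, whose changes lay between -0.11 and 0.00. It stood apart less clearly under the other scalings. On the deposited scale its change was -1.11 in MCT and between -0.30 and 0.30 in the other lines. Both other probe sets of Pfkp had a mean change of the opposite sign to the one used, 0.11 and 0.59 against -0.11, so no direction can be given for it.

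The enzymes of the lower pathway were near the top of the scale and moved little except in mProx. Aldoa, the main aldolase, was at 11.93 and 12.06 in resting and stimulated EpH4, 11.97 and 12.64 in mProx, 12.89 and 12.79 in MCT, and 13.03 and 12.90 in NMuMG. Only the mProx pair differed by more than 0.13, with a change of 0.67. Tpi1, triose phosphate isomerase, changed by 0.29 in mProx and by -0.06 to 0.13 in the other lines. Gapdh, read from a control probe set, was between 13.16 and 13.43 on all arrays and changed by no more than 0.08 in any line (0.01 ± 0.07, SD, n = 4). Pgk1, the first ATP-forming enzyme, was at 12.99 and 12.89 in resting and stimulated EpH4, 12.96 and 13.23 in mProx, 13.28 and 13.15 in MCT, and 13.11 and 13.10 in NMuMG. It changed by 0.27 in mProx and by -0.13 to -0.01 elsewhere. A dimmer Pgk1 probe set, at a mean level of 10.06, gave 1.72 in mProx, 0.59 in MCT, 0.39 in NMuMG and -0.40 in EpH4, so the size depends on the probe set. Pgam1, phosphoglycerate mutase, changed by 0.49 in mProx, 0.31 in NMuMG, 0.00 in MCT and -0.07 in EpH4. Pkm, pyruvate kinase, changed by 0.17 in mProx and by -0.18 to -0.05 in the others. Levels above 12.34 are in the top 1% of the scale, where a higher amount may not show.

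Lactate dehydrogenase subunits moved in opposite directions in mProx. Ldha, the subunit favouring lactate formation, was at 12.21 and 12.02 in resting and stimulated EpH4, 12.03 and 12.68 in mProx, 13.01 and 13.00 in MCT, and 12.41 and 12.40 in NMuMG. Its mProx pair differed by 0.66, whereas MCT and NMuMG changed by -0.01 each and EpH4 by -0.19. Ldhb, the subunit favouring pyruvate formation, went from 9.48 to 8.78 in mProx, a change of -0.69, and changed by 0.18, 0.23 and -0.05 in EpH4, MCT and NMuMG. All 4 Ldhb probe sets were lower in mProx, between -0.84 and -0.48, but they disagreed in EpH4, from -0.98 to 1.19.

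Of the 14 enzymes, 6 had a 4-line mean below 0, and Eno2 and Aldoc, isoforms known best from neural tissue, had the lowest means. Eno2 was at 4.57 and 4.56 in resting and stimulated EpH4, 7.65 and 6.87 in mProx, 9.41 and 8.22 in MCT, and 7.22 and 6.85 in NMuMG. Stimulated arrays of the 3 lines with a measurable level lay below their resting partners, and EpH4 was dim on both. The change was -1.19 in MCT, -0.77 in mProx and -0.37 in NMuMG, with a 3-line mean of -0.78 and an SE of 0.20 (limma adjusted p = 0.217). Aldoc was at 7.56 and 7.47 in resting and stimulated EpH4, 6.66 and 7.15 in mProx, 10.28 and 9.22 in MCT, and 7.38 and 6.33 in NMuMG. It was lower by 1.06 in MCT and 1.04 in NMuMG, near 0 in EpH4 and higher by 0.50 in mProx, so the lines were divided (-0.42 ± 0.76, SD, n = 4). With arrays centred on their medians the NMuMG change was -0.88.

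Lactate leaves cells through monocarboxylate transporters. Slc16a1, encoding the widely expressed MCT1, was at 10.98 and 10.73 in resting and stimulated EpH4, 10.59 and 10.72 in mProx, 11.64 and 11.27 in MCT, and 9.75 and 9.41 in NMuMG. It changed by -0.37 in MCT, -0.34 in NMuMG, -0.25 in EpH4 and 0.13 in mProx (limma adjusted p = 0.498). Slc16a3 was at 5.11 and 5.78 in resting and stimulated EpH4, 6.17 and 6.13 in mProx, 10.57 and 11.01 in MCT, and 4.88 and 4.60 in NMuMG. It was higher by 0.44 in MCT, the only line with a level far above the filter, and by 0.67 in EpH4, where the resting array was dim.

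Of the genes that steer flux, Pdk1 was at 7.51 and 7.15 in resting and stimulated EpH4, 9.29 and 10.25 in mProx, 9.73 and 9.85 in MCT, and 7.39 and 7.51 in NMuMG. Stimulated mProx exceeded both MCT arrays, and all 4 mammary arrays lay below every kidney array. The change was 0.96 in mProx, 0.13 in MCT, 0.11 in NMuMG and -0.36 in EpH4. The 2 other Pdk1 probe sets above the filter level gave 0.78 and 0.95 in mProx and 0.71 and 0.74 in NMuMG. In MCT they gave -0.02 and 0.37, and in EpH4 -0.25 and -0.20, so the NMuMG change depends on the probe set. Pfkfb3 and Pfkfb4 make fructose 2,6-bisphosphate, the allosteric activator of phosphofructokinase. Pfkfb3 was at 6.90 and 6.56 in resting and stimulated EpH4, 6.86 and 5.25 in mProx, 6.26 and 5.65 in MCT, and 5.56 and 6.07 in NMuMG. Stimulated mProx was dim, so the change of -1.62 there is not exact, and a second Pfkfb3 probe set gave only -0.08. Pfkfb4 was higher in each of the 4 lines, by 0.14, 0.18, 0.21 and 0.53 in EpH4, mProx, MCT and NMuMG (limma adjusted p = 0.499), but on the deposited scale it was -0.15 in EpH4 and -0.07 in MCT.

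Of the genes of the factors themselves, Hif1a stayed near its resting level on the probe set used, and Epas1 went different ways in different lines. Hif1a, encoding HIF-1α, was at 11.23 and 11.06 in resting and stimulated EpH4, 11.58 and 11.40 in mProx, 11.53 and 11.46 in MCT, and 11.42 and 11.50 in NMuMG. No line changed by more than 0.17 in either direction, and the mean was -0.08 ± 0.12 (SD, n = 4). With median-centred arrays the mean was 0.01, and of 2 other probe sets above the filter level 1 had the opposite sign. Those 2 probe sets moved more in single lines, by 0.62 in NMuMG for one and by 0.46 in mProx and -0.56 in MCT for the other. Epas1, encoding HIF-2α, was highest in MCT, where it went from 8.93 to 8.20. It changed by 0.38 in mProx, 0.25 in NMuMG and -0.17 in EpH4.

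Egln1 encodes PHD2, the main prolyl hydroxylase of HIF-1α. Its level was 9.36 and 9.80 in resting and stimulated EpH4, 10.14 and 10.26 in mProx, 9.69 and 9.98 in MCT, and 9.20 and 9.97 in NMuMG. It was higher after stimulation in each line, most in NMuMG, and the resting levels of the kidney lines overlapped with the stimulated levels of the mammary lines. The mean change was 0.40 with an SE of 0.12 (limma adjusted p = 0.299), and on the deposited scale the mProx change was -0.01. Egln3 encodes PHD3, itself a HIF target. It was at 5.58 and 5.11 in resting and stimulated EpH4, 6.30 and 7.20 in mProx, 9.72 and 9.34 in MCT, and 8.86 and 8.93 in NMuMG. MCT and NMuMG were high throughout, EpH4 was near the filter level, and mProx was higher after stimulation by 0.90. A second Egln3 probe set gave 0.61 in mProx, 0.51 in EpH4, 0.39 in NMuMG and -0.48 in MCT, so the order of the lines depends on the probe set.

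The other hypoxia targets were higher in mProx in 5 of 6 cases, against 50.7% of all genes tested, counting Car9, which was dim there and changed by 0.03 (-0.08 on the deposited scale). Bnip3, a mitophagy receptor gene, was at 10.27 and 10.01 in resting and stimulated EpH4, 10.23 and 11.03 in mProx, 11.12 and 11.26 in MCT, and 10.62 and 10.88 in NMuMG. It was higher by 0.80 in mProx, 0.26 in NMuMG and 0.14 in MCT, and lower by 0.26 in EpH4 (0.23 ± 0.43, SD, n = 4). Ankrd37, a small ankyrin-repeat gene used as a hypoxia marker, was at 5.92 and 5.40 in resting and stimulated EpH4, 6.41 and 7.65 in mProx, 6.01 and 6.30 in MCT, and 5.87 and 5.84 in NMuMG. Stimulated mProx was the highest array, while the other 7 lay between 5.40 and 6.41, near the filter level. The change was 1.24 in mProx, 0.29 in MCT, -0.03 in NMuMG and -0.52 in EpH4.

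Ero1a, the endoplasmic reticulum oxidase that drives disulfide formation, was at 10.37 and 9.97 in resting and stimulated EpH4, 9.60 and 10.60 in mProx, 11.12 and 11.10 in MCT, and 9.24 and 9.36 in NMuMG. The mProx change was 1.00, against -0.02 in MCT, 0.11 in NMuMG and -0.40 in EpH4, and stimulated mProx was still below both MCT arrays. Both other probe sets of Ero1a had the same sign of the mean. Adm, the gene of the vasodilator peptide adrenomedullin, was at 6.14 and 5.90 in resting and stimulated EpH4, 4.68 and 5.53 in mProx, 6.93 and 6.02 in MCT, and 5.03 and 5.76 in NMuMG. It was higher in mProx and NMuMG, by 0.85 and 0.74 from dim resting levels, and lower by 0.90 in MCT and 0.25 in EpH4. A dimmer Adm probe set, with a mean level of 4.61, gave only 0.01 in mProx and 0.13 in NMuMG. It gave -1.375 in MCT and -1.14 in EpH4, so the size depends on the probe set.

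Car9 was above the filter level by a clear margin only in EpH4, where it went from 7.65 to 7.54, and was dim on both mProx arrays. Ndrg1, a differentiation-linked gene induced by hypoxia in many cells, was the exception in mProx. Its level was 11.47 and 11.28 in resting and stimulated EpH4, 11.84 and 11.15 in mProx, 10.85 and 11.17 in MCT, and 11.48 and 11.33 in NMuMG. It was lower by 0.68 in mProx and higher by 0.32 in MCT, and its 4 other probe sets shared the sign of the mean, -0.18.

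Both the glycolytic enzymes and the 6 other hypoxia targets of the set had their highest median change in mProx. There the median change was 0.49 for the 14 enzymes and 0.82 for the 6 hypoxia targets. In EpH4 the medians were -0.06 and -0.25, in MCT -0.11 and 0.06, and in NMuMG -0.05 and 0.04. The median of all genes tested lay between -0.02 and 0.04 in the 4 lines. In EpH4 0 of 6 hypoxia targets were higher, in MCT and NMuMG 3 of 6 each. Over the 4 lines the medians of the mean change were 0.04 and 0.14, against 0.01 for all genes tested, and without mProx they were -0.07 and -0.09. For 20 hypoxia targets outside the set, described below, mProx was not the highest line. Their median change was 0.04 in mProx, 0.18 in MCT, 0.30 in NMuMG and -0.09 in EpH4.

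**Figure D3:**
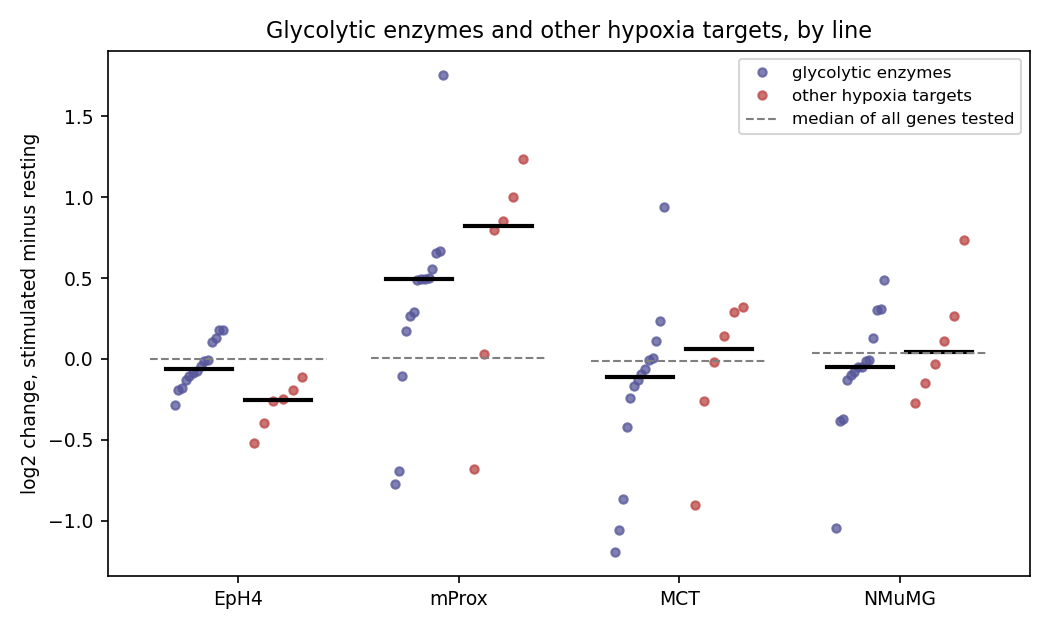
Log2 change after stimulation (vertical axis) in each line for the 14 glycolytic enzyme genes and the 6 other hypoxia targets tested. Each point is 1 gene from 1 pair of arrays, thick bars are group medians and dashed lines the median of all genes tested. The mProx medians of 0.49 and 0.82 are the highest of the 4 lines.

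In mProx 23 of the 30 set genes were higher (76.7%), against 50.7% of all genes tested. Of the 30, 21 had their highest signed change of the 4 lines in mProx (70%), against 27.1% of all genes tested, and 4 were at least 2-fold higher there, against 2.79% of all. The mProx set median was 0.43 above the median of all genes under quantile normalization and 0.42 above it under both other scalings. The 4 genes were Hk2, Ankrd37, Slc2a1 and Ero1a, the last of them at the limit, and the count was 3 under both other scalings. The 21 genes with their highest change in mProx include some whose mProx change was small beside decreases elsewhere, such as Slc16a1. The count of genes with their highest change in mProx was 15 of 30 on the deposited scale and 20 with median centring. For NMuMG it was 14 on the deposited scale and 5 with median centring. Of the 14 enzymes, mProx and NMuMG each had 7 on the deposited scale. The share of 27.1% holds for quantile normalization, and no share over all genes was taken for the other scalings. In the same line 1 set gene, Pfkfb3, was at least 2-fold lower, against 2.46% of all. Each line has a single pair of arrays, so this has no replicate check.

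Other measures moved in the mProx pair as well. The fibroblast marker list had 6 of 8 markers above the filter level on both mProx arrays, and its summed level went from 52.28 to 48.71, with Dcn, encoding decorin, from 10.56 to 7.53 and Lum, encoding lumican, from 7.39 to 4.73. In the same list Col1a1, a collagen gene, went from 4.68 to 6.50 and Thy1 from 3.99 to 5.13. The summed level of the 10 measured proximal tubule markers went from 72.32 to 68.79, and that of the epithelial markers from 76.24 to 80.74. Over the other 6 arrays the sum of the fibroblast markers was 38.92 to 48.01, with Dcn dim at 3.84 to 4.72. Of the 6 measured TGF-β and ERK target genes 5 were above the filter level in resting mProx and 6 after stimulation, and their summed level went from 43.89 to 54.51. For the other lines it went from 53.35 to 58.36 in EpH4, 48.91 to 58.33 in MCT and 51.40 to 58.34 in NMuMG. The 3' to 5' ratio of the Gapdh control probe sets was 0.791 and 0.778 in mProx, within the 0.776 to 0.823 of all arrays. The part of these measures in the mProx result was not tested.

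Of the other lines, MCT and NMuMG had shares of higher genes near the background. In EpH4 8 of 30 genes were higher (26.7%), against 49.5% of all genes tested, with changes between -0.52 and 0.67, and 0 were changed 2-fold in either direction, against 1.30% of all higher and 1.03% lower. In MCT 12 of 30 were higher (40%), against 47.8%, with 1 at least 2-fold higher, against 2.76%, and 2 at least 2-fold lower, against 2.72%. In NMuMG 15 of 30 were higher (50%), against 54.6%, with 1 at least 2-fold lower, against 1.99%, and 0 at least 2-fold higher, against 3.02%. The numbers higher depend on the scaling. On the deposited scale the median of all genes moved to -0.277 in EpH4, -0.243 in MCT, -0.106 in mProx and 0.342 in NMuMG, and of the 30 set genes 3 were higher in EpH4, 6 in MCT, 21 in mProx and 25 in NMuMG. Counted against those medians, 9 lay above in EpH4, 18 in MCT, 23 in mProx and 14 in NMuMG, where quantile normalization gave 8, 23, 13 and 15 for EpH4, mProx, MCT and NMuMG. Median centring moved the median of all genes to 0.168 in NMuMG, and for EpH4, mProx, MCT and NMuMG 9, 23, 16 and 22 genes were higher. The counts above the medians were then 9, 23, 18 and 14 for the lines as just listed.

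**Figure D4:**
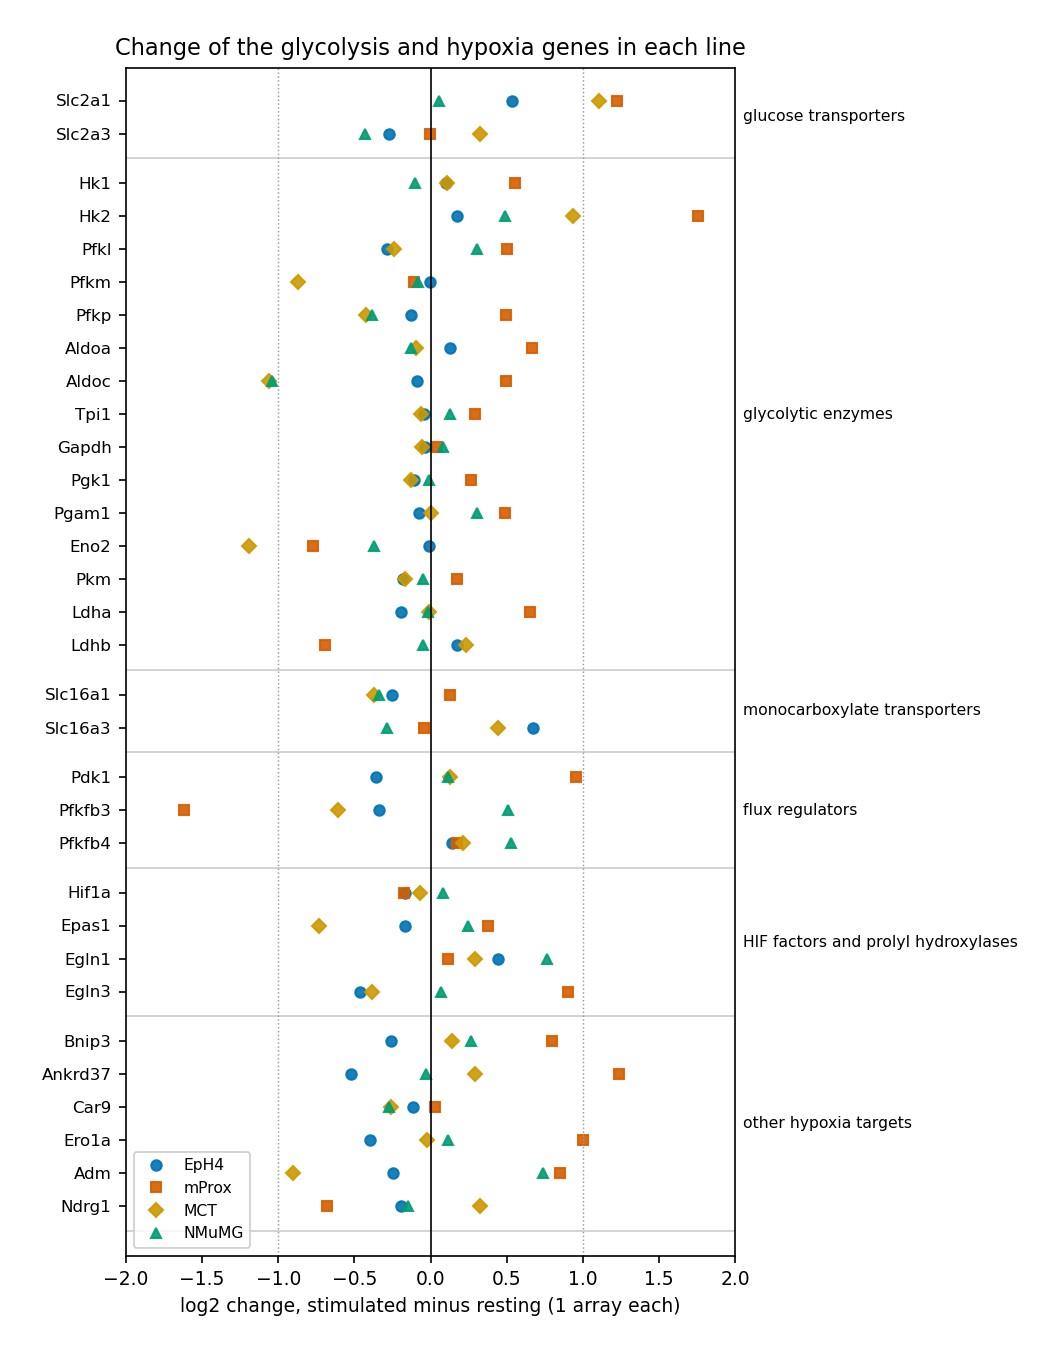
Log2 change after stimulation (horizontal axis) of each of the 32 measured genes, 1 symbol for each line, grouped by role. Dotted lines mark a 2-fold change, and the mProx symbols lie to the right of the other lines for most enzymes and hypoxia targets but to the left for Pfkfb3, Ldhb and Ndrg1.

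Tests of the difference between lines gave no call. Taking the mean response of the other lines from that of EpH4 gave -0.66 for Bnip3, -0.88 for Hk2, -0.76 for Ero1a and -0.76 for Pdk1, with SEs of 0.29, 0.46, 0.40 and 0.41. None of the 12697 genes passed limma's test of this difference (0%), 436 had an unadjusted p under 0.05 (3.43%), and 0 of these were in the set. The kidney response exceeded the mammary response by 0.87 for Slc2a1 (SE 0.22, limma adjusted p = 0.72) and by 1.02 for Hk2 (SE 0.30, limma adjusted p = 0.725). Both kidney lines were above both mammary lines for 6 of 30 set genes, against 15.7% of all genes tested, and below them for 4, against 18.6%. Of all genes tested 0 passed (0%). An unadjusted p under 0.05 was reached by 754 genes (5.94%), among them Slc2a1 and Hk2 of the set.

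Of 75 further genes of these pathways 70 were measured and 63 tested, and 0 passed any of the 6 limma tests, while in the 4-line response 32 had a mean change above 0 and 31 below. Among 20 other hypoxia targets 14 had a mean above 0, against 6544 of the 12697 genes tested. The list median was 0.12, against 0.01 for all genes tested. Bhlhe40, a HIF-responsive repressor of the circadian clock, was changed at least 2-fold in 3 lines, by 1.09 in EpH4, 1.65 in MCT and 1.10 in NMuMG, and by 0.07 in mProx (limma adjusted p = 0.182). In mProx that longer list had a median of 0.04, with 11 of 20 genes higher (55%), against 50.7% of all genes tested. Its median was larger in MCT, at 0.18, and in NMuMG, at 0.30, and was -0.09 in EpH4. In NMuMG 17 of the 20 were higher (85%), against 54.6% of all genes tested. Of 8 other regulators of the HIF pathway 6 had a mean below 0, against 6153 of the 12697 genes tested. Vhl, which marks HIF for degradation, was 1 of the 6, at -0.41 ± 0.19 (SD, n = 4, limma adjusted p = 0.276). The largest mean of that list was the other way, for Hif3a, a HIF alpha subunit gene that was higher in each line (0.66 ± 0.29, SD, n = 4; limma adjusted p = 0.217). Both genes were picked after their values were seen. The gluconeogenesis list had 5 of 8 genes tested, with a median of 0.06, and the pentose phosphate list 6 of 7, with -0.04. The list of other glycolytic isoforms had 13 of 20 tested, with a median of -0.03. In mProx all 6 tested pentose phosphate genes and all 5 gluconeogenesis genes were higher. There 6 of the 13 other isoforms, 4 of 11 pyruvate oxidation genes and 2 of the 8 HIF regulators were higher. The highest change was in mProx for 83.3% of the pentose phosphate, 80% of the gluconeogenesis and 30.8% of the isoform genes, against 27.1% of all.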

How the data were processed

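RNA of 4 lines was hybridised to 8 mouse expression arrays, 1 resting and 1 stimulated for each line. The deposited values are MAS5 signal intensities on a linear scale, 1 for each of 45101 probe sets, per the submitters' processing notes. For the MAS5 version and scaling target, the sources used here give nothing. Detection calls were not used. Array number limits the precision. The members and lists were chosen with earlier results of these data known.

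Control probe sets (64) were dropped. To each signal 10.6 was added, the 25th percentile of positive signals, and log2 values were quantile-normalized, since array medians differed by 0.43. The offset understates changes of dim genes. Genes whose mean reached the 40th percentile, 5.27, entered limma 3.58.1 under R 4.3.3 (intensity trend, two-sided, Benjamini-Hochberg over all genes tested, threshold 0.05), with the line as a block in tests of response. The script was tested on simulated data. Line names pair the arrays, and deviations of the 2 arrays of a line from their group means correlated across genes at 0.905, 0.827, 0.812 and 0.874. A line standing alone is assumed to vary like the others.

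By the naming rule, each array's level is given for members passing a test, changed 2-fold in a line with both arrays above the filter level, or having the highest mean level or largest mean change of their role group. Levels of 6 further members were added after their values were seen. Of the genes outside the set, those passing a test or changed 2-fold the same way in 3 lines were named, and a few others picked after their values were seen. Alternatives were the scaling, offset, filter, probe set choice, controls, trend, block and leaving out each line.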

Additional observations from a re-analysis of the deposited data

Results flagged for a closer look

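Over 93 groups of 4 values (resting, stimulated and change for 31 genes), in 5 cases 1 value lay far from the other 3, the gap to its neighbour being past Dixon's limit for 4 values, which chance passes in about 1 of 20 groups. A count of 5 in 93 is near that rate. Of the 5, 1 was past the limit on the deposited scale (Pgam1) and 0 with median centring. They were resting Pfkl in EpH4, at 9.70 against 11.17 to 11.39, and the stimulated levels of Hk1, Pgam1 and Pkm in EpH4, at 9.63 against 10.71 to 10.93, 11.95 against 12.69 to 12.84 and 11.85 against 12.56 to 12.64. The fifth was the change of Pfkm in MCT, at -0.87 against -0.11 to 0.00.

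Ankrd37 was higher in both kidney lines and lower in both mammary lines, a difference of 1.04 (limma adjusted p = 0.87). On the deposited scale its NMuMG change was 0.15, so the signs no longer opposed.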

How the results depend on the processing

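Of the 30 set genes tested, 0 passed the 6 tests in the main setting, and 1 passed in 4 alternatives: Hk2 on the deposited scale in the 4-line and in the 3-line response, Hk2 with median centring in the 3-line response, and Slc2a1 in the 3-line response without NMuMG (0 to 1 over the lines left out). Without between-array normalization 238 genes passed in the 4-line response (109 higher, 129 lower), 216 in the 3 lines (116 higher, 100 lower), 5 and 21 in the EpH4 and the kidney difference, and 6 and 13 in the resting tests of tissue and of EpH4. Median centring gave 24 (15 higher, 9 lower) in the 4-line and 85 (50 higher, 35 lower) in the 3-line response, where quantile normalization gave 5 higher and 8 lower. In the 4-line response 1 gene passed with an offset of 1 and 8 with 50. In the 3 lines 2 passed with an offset of 50, 21 with the filter at the 60th percentile, 8 with the mean of all probe sets, and 0 with no filter, no intensity trend or no replicate block. Without the trend 0 passed in the resting EpH4 test. With probe sets ending in _x_at used only where a gene had no other, and the spread taken from all 8 arrays, 26 passed in the 3 lines (13 higher, 13 lower), a setting chosen after seeing the data. Leaving out each line gave 0 to 13 genes in the 4-line response, 13 without EpH4. It gave 12 to 63 in the 3-line response, 27 without MCT and 63 without NMuMG, 0 to 35 in the kidney difference, 17 without mProx and 35 without MCT, and 0 in the resting EpH4 test. The causes were not tested.

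The mProx medians ran from 0.35 to 0.53 for enzymes and 0.59 to 0.91 for hypoxia targets over the alternatives. Of 167 recomputed mean changes of the 13 genes fixed for naming, 5 changed sign, 4 of them without mProx (Pgk1 -0.08, Pdk1 -0.04, Ankrd37 -0.09, Ero1a -0.10). Signals near the bottom and the top of the scale limit what the arrays can show.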

Other observations

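Genes of pyruvate oxidation, which carries the end product of glycolysis into mitochondria, had their lowest change in MCT for 10 of 11 genes tested, against 3430 of the 12697 genes tested, and again 10 of 11 under both other scalings. The median change of this list was -0.32 in MCT, 0.02 in EpH4, -0.03 in mProx and 0.08 in NMuMG, and relative to the median of all genes it was -0.31 to -0.32 in MCT under the 3 scalings. Pdk2, a pyruvate dehydrogenase kinase gene, changed by -1.39 in MCT and the pyruvate carrier gene Mpc1 by -0.82, while Pdk4 changed by 0.92. Of the 11 genes, 1 was higher in MCT (9.09%), against 47.8% of all. The list joins subunits of pyruvate dehydrogenase with kinases that switch it off, so these counts give no direction for the pathway. These genes were singled out after their values were seen, and each line has a single pair of arrays.

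Outside the set and also picked after their values were seen, Vegfa, the gene of the vascular growth factor, was higher in each line, by 0.22, 0.77, 1.58 and 0.75 in EpH4, mProx, MCT and NMuMG (limma adjusted p = 0.212). Ddit4, a stress-induced inhibitor of mTORC1, was higher by 0.34, 1.03, 1.17 and 0.34 in the same order (limma adjusted p = 0.165). Slc2a2, encoding the basolateral glucose transporter GLUT2 of the proximal tubule, was just above the filter level in resting mProx and MCT, at 5.81 and 5.61, and dim after stimulation, at 3.74 and 3.80. It was dim on all 4 mammary arrays.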
